A study of Homo sapiens with 4 samples.

Results

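The genes described here are 10 genes of iron and copper handling out of 20033 protein-coding genes of the GENCODE 44 annotation, taken by name: FTH1, FTL, TFRC, SLC40A1, HAMP, SLC11A2, ATP7A, ATP7B, SLC31A1 and ATOX1. For each gene, every MTF-1 peak that overlapped the gene or the 20 kb on either side of it was collected, which gave 69 peaks. The peaks come from MDA-MB-231, an established human breast cancer line, profiled by CUT&RUN, in which an antibody directs a nuclease to a chromatin protein and the released DNA is sequenced. The 2 groups were untreated control cells and a line of the same cells kept at 10 µM cadmium. That line had been selected by long passaging in cadmium sulfate. Whether the control cells were passaged for as long is not stated. Each group had 2 libraries, which the authors merged before peaks were called. One peak list per group was therefore analysed, with positions on hg38 and no read count or height. Neither the depth nor the spread between libraries can be read from these lists, so no difference below carries a test.

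MTF-1, a regulator with zinc fingers, enters the nucleus under metal load and binds metal response elements, best known at metallothionein genes. Iron in cells is taken up by the transferrin receptor and by divalent metal transporters, stored inside ferritin and exported by ferroportin, and hepcidin, a hormone mostly of the liver, causes ferroportin to be degraded. Copper enters through a high-affinity importer, is handed on by a cytosolic chaperone, and is pumped into the secretory pathway or out of the cell by ATPases. Ferritin and transferrin receptor are widely known for control at the level of their mRNAs, which these data do not measure.

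A peak is called lost when it shared no base with the cadmium list, gained when it shared no base with the control list, and shared otherwise. In all, 27.9% of 69299 control peaks were lost and 15.1% of 60130 cadmium peaks were gained, and the cadmium list covered 90.9 Mb against 130 Mb in control. The windows of the iron and copper genes held 36 control and 33 cadmium peaks. Of these, 6 were lost and 3 gained, and the shared peaks merged into 29 sites. A transcript start, or TSS, is that of the canonical Ensembl transcript, and a TSS peak is one with a base within 1 kb of it. All peak edges fall on a grid of 200 bp, so a difference of 1 bin is the smallest that the lists can show.

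Promoter sequences on which the sections below draw are shown first. The metal response element core was searched as TGCACNC or TGCGCNC on both strands. The sequences are stretches in front of TFRC (chr3:196082154-196082340, minus strand), SLC40A1 (chr2:189580787-189581036, minus strand) and ATOX1 (chr5:151758632-151758661, minus strand), shown because they hold the promoter cores. All are written 5′ to 3′ on the strand of the gene, with the cores in capitals, and are those of RefSeq on GRCh38.p14.
TFRC promoter: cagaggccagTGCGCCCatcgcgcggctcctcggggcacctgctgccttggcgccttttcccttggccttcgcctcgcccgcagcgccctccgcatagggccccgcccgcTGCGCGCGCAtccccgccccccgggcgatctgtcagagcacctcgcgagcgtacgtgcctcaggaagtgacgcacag
SLC40A1 promoter: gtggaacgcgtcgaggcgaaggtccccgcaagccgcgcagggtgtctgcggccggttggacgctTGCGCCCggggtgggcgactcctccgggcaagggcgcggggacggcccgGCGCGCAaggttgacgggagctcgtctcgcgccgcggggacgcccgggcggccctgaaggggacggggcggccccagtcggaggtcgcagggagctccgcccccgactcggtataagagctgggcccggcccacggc
ATOX1 promoter: caggcctctaGTGCGCACtctcggaagcgc

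At the transcript starts, the iron and copper genes had MTF-1 peaks in control and in cadmium cells alike. In the control list 9 of 10 starts carried a peak, and the same 9 did so in the cadmium list. HAMP, the hepcidin gene, had none in either. Over the whole annotation, the share of protein-coding genes with such a peak was 68.6% in control, 66.9% in cadmium and 65.5% in both. No iron or copper gene had a TSS peak in control only, which 3.08% of all genes had, or in cadmium only, which 1.32% had. In each of the 9 genes the peak contained the TSS itself in both lists. The median width of these 9 peaks was 2999 bp in control and 2799 bp in cadmium. Over the TSS peaks of all protein-coding genes the medians were 2599 and 2199 bp.

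**Figure D1:**
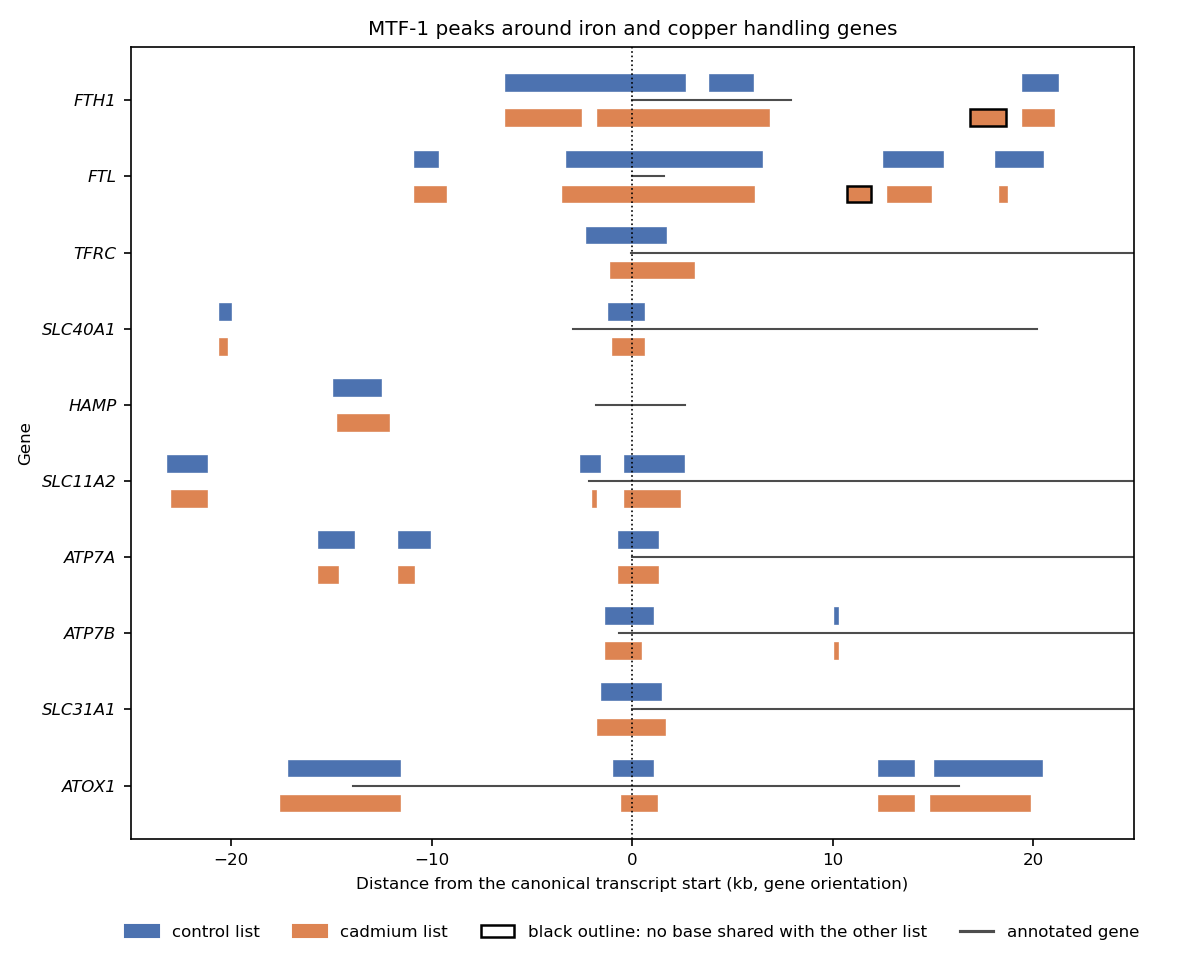
MTF-1 peaks of the control list (blue) and the cadmium list (orange) within 25 kb of the canonical transcript start of each gene, in the direction of the gene, with distance in kb on the x axis. Peaks cover the start (dotted line) of 9 genes in both lists and not that of HAMP, and the outlined peaks near FTH1 and FTL are in the cadmium list only.

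Changes away from the starts were unevenly spread over the genes. Lost peaks lay in the windows of TFRC (3 peaks), SLC11A2, ATP7A and ATP7B (1 each), so that 4 of 10 windows had one, and 46% of all protein-coding genes had at least 1 lost peak in a window drawn the same way. Gained peaks lay in the windows of FTH1, FTL and TFRC, 1 in each, and 31.1% of all genes had at least 1. Only TFRC had both kinds. The windows of SLC40A1, HAMP, SLC31A1 and ATOX1 had neither. The 4 windows with a lost peak were the 4 longest of the 10, between 89166 bp (SLC11A2) and 179706 bp (ATP7A). The longest of the others was 82949 bp (SLC31A1), and the part played by window length was not tested. How far from the start a peak can lie within a window also depends on gene length. Each of the 6 lost peaks lay more than 20 kb from the TSS of the gene whose window it was in, with the edge nearest the start between 25385 bp (SLC11A2) and 86091 bp (TFRC) away.

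The sequence covered by peaks in each window was compared as a ratio of cadmium to control, with 200 bp, which is 1 bin, added to each value. The ratio was at least 1.5-fold lower in cadmium for 2 of 10 genes, ATP7B and TFRC, and for 36.6% of the 18115 protein-coding genes whose window had any peak. It was at least 1.5-fold higher for none of the 10, and for 6.88% of all genes. More bases were covered in cadmium than in control for FTH1, HAMP and SLC31A1, and for 23.8% of all genes. The median log2 ratio was -0.18 over the 10 genes and -0.38 over all genes. Because the cadmium list is shorter as a whole, dividing each ratio by that of the 2 lists (0.697) raised every log2 ratio by 0.52 and turned the median over the 10 genes to 0.34, with 0.14 over all genes. On that scale ATP7B alone was lower (14.7% of all genes) and FTH1 and HAMP were higher (21.5% of all genes). The ratios of FTL, SLC40A1, ATP7A and ATOX1 turned from lower to higher on that scale, SLC11A2 came to 1, and the other 5 genes kept their direction.

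**Figure D2:**
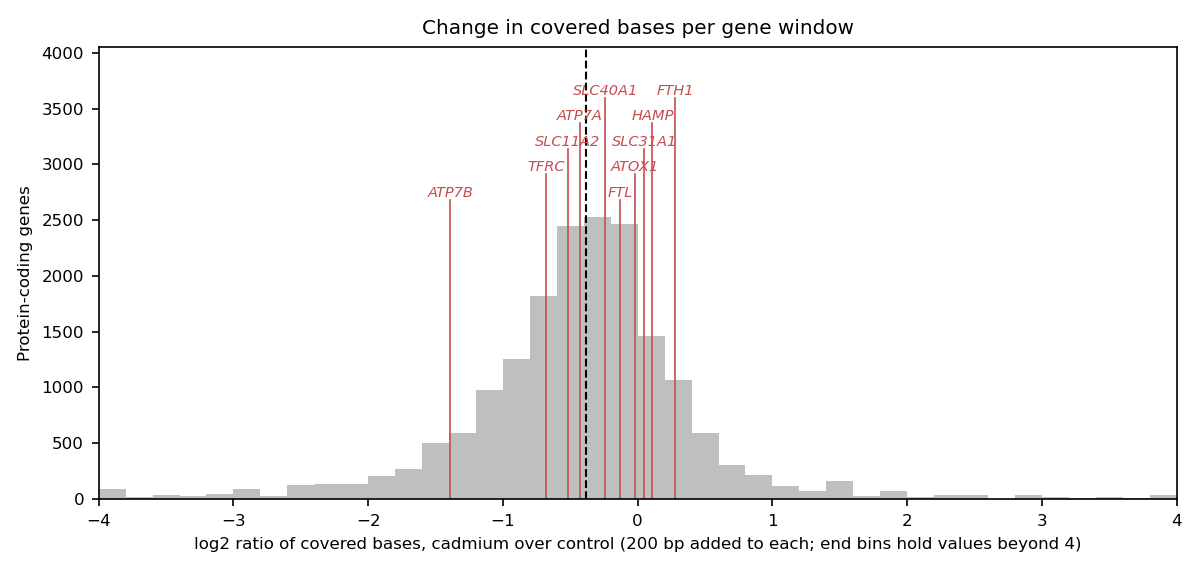
Histogram of the log2 ratio of covered bases (x axis, cadmium over control) over 18115 protein-coding gene windows (y axis, number of genes), with the 10 iron and copper genes as red lines and the median of all genes, -0.38, as a dashed line. ATP7B, at -1.39, lies furthest to the left and FTH1, at 0.28, furthest to the right of the 10.

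Ferritin stores iron in a shell of heavy and light chains, and both genes lay under some of the broadest peaks found at any start. FTL, the light chain (chromosome 19, 48965309 to 48966879, plus strand), was covered over its whole length by a control peak of 9799 bp from 48962001 to 48971799 and by a cadmium peak of 9599 bp from 48961801 to 48971399. Among genes with a TSS peak, 4.04% in control and 2.4% in cadmium had one at least as wide. The 2 lists differed here by 1 bin at the upstream edge and 2 bins at the downstream edge. FTH1, the heavy chain with ferroxidase activity (chromosome 11, 61959718 to 61967634, minus strand), had a TSS peak of 8999 bp in control and 8599 bp in cadmium, matched or exceeded by 4.81% and 3.16% of genes with a TSS peak.

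At FTH1 the lists covered much the same stretch but broke it at different places. In control, peaks ran from 61961601 to 61973999 with a gap of 1201 bp between 61963800 and 61965000, inside the annotated gene and downstream of the canonical start. In cadmium, they ran from 61960801 to 61973999 with a gap of 801 bp between 61969400 and 61970200, upstream of the start. The cadmium TSS peak thus extended over all 4 exons of the canonical transcript, and the control TSS peak over exons 1 to 3. The bases covered in this stretch were 11198 in control and 12398 in cadmium. Over the whole window, 12997 bp were covered in control and 15796 bp in cadmium (ratio 1.21), the highest ratio of the 10 genes, and 87.1% of all genes had a lower one. Of this difference, 1799 bp were the gained peak, and without it cadmium covered 13997 bp.

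That gained peak ran from 61949001 to 61950799, at the start of BEST1, a chloride channel gene, and 16835 bp from the FTH1 start. It held 3 metal response element cores toward its edges, none within 500 bp around its centre. It also held the antioxidant response element core TGACNNNGC, the sequence type to which NRF2 binds, once, in the stretch shown here from chr11:61949930-61950018 on the minus strand with the core in capitals.
FTH1 gained peak: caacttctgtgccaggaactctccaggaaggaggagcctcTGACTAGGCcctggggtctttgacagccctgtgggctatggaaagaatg
Of all gained peaks, 23.5% held this core within 500 bp around the centre. The gained peak near FTL ran from 48976001 to 48977199 inside GYS1, the muscle glycogen synthase gene, 10692 bp from the FTL start. The next shared site ran from 48977801 to 48980799 in control and from 48978001 to 48980199 in cadmium. In the FTL window as a whole, 16396 bp were covered in control and 14995 bp in cadmium, of which 13196 bp were common to both. The largest single difference was at a shared site 18092 bp from the start, where the control peak measured 2399 bp and the cadmium peak 399 bp.

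TFRC, the transferrin receptor that brings iron-loaded transferrin into cells (chromosome 3, 196012511 to 196082153, minus strand), changed at both ends. The TSS peak was about as wide in both lists, 3999 bp in control and 4199 bp in cadmium, but the lists shared only 2799 bp of it. In control it covered 2309 bp upstream and 1689 bp downstream of the start. In cadmium it covered 1109 bp upstream and 3089 bp downstream, reaching further into the first intron. At the far end, 3 control peaks were lost. The first, from 196012401 to 196013599, overlapped the annotated 3′ end of the gene in a non-canonical transcript. The second, from 196026001 to 196026399, lay in an intron of a non-canonical transcript. The third, from 195994201 to 195995999, lay outside TFRC near the start of the long noncoding RNA gene ENSG00000286168, which also spans the other lost peaks.

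Over the TFRC window, 8794 bp were covered in control and 5396 bp in cadmium (ratio 0.622), and only 31.5% of the bases in either list were in both. The lost peaks accounted for 3397 bp. Within the gene body alone the log2 ratio was -0.09, against -0.68 with the flanks, so most of the net difference lay outside the gene. Peaks inside the gene did change: lost and narrower peaks were largely balanced by a gained peak of 599 bp and by the start peak reaching further downstream. Among all genes, 30.7% had a lower ratio.

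The single gained peak of TFRC, from 196055601 to 196056199, lay in an intron 25891 bp from the start.

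**Figure D3:**
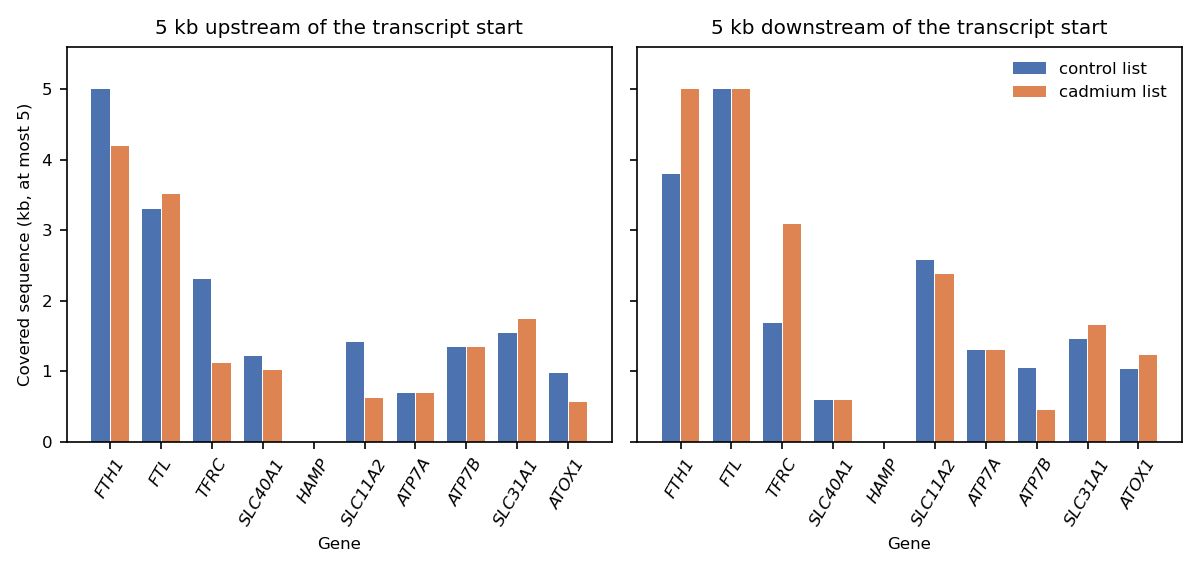
Bases covered by peaks in the 5 kb upstream (left) and downstream (right) of the canonical start of each gene, in kb, in the control list (blue) and the cadmium list (orange). FTH1, TFRC and ATOX1 have less cover upstream and more downstream in cadmium.

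The change of side seen at the TFRC start was also seen at FTH1 and ATOX1. For FTH1, cover of the 5 kb upstream went from 5000 bp in control to 4199 bp in cadmium, and of the 5 kb downstream from 3799 to 5000 bp. For ATOX1, the difference was smaller, with 968 bp in control and 568 bp in cadmium upstream, and 1030 and 1230 bp downstream, which are shifts of 2 bins and 1 bin. So 3 of 9 genes with a TSS peak in both lists had less cover upstream and more downstream in cadmium, as had 10.4% of the 13131 such genes in the annotation. None of the 9 had the opposite, which 10.1% of genes had. Of 29 further iron and copper genes with a TSS peak in both lists, 8 had the same change of side and 0 the opposite. This comparison was chosen after the values for FTH1 and TFRC were seen, and 9 genes chosen by name are too few to call it particular to them.

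SLC40A1 encodes ferroportin, the only known iron exporter of human cells (chromosome 2, 189560590 to 189583758, minus strand). Its window had the fewest covered bases of the 9 genes with a TSS peak, in both lists. The start peak measured 1799 bp in control (189580201 to 189581999) and 1599 bp in cadmium (189580201 to 189581799), 1 bin shorter at the upstream edge. A second shared peak lay 20015 bp upstream, with 599 bp in control and 399 bp in cadmium. Together they covered 2398 bp in control and 1998 bp in cadmium, and every cadmium base was also in a control peak. HAMP (chromosome 19, 35280716 to 35285143, plus strand) had no peak over the gene. The only peak in its window was shared and lay at the start of USF2, a basic helix-loop-helix factor gene, with its edge 12529 bp from the HAMP start in control and 12129 bp in cadmium. The covered bases given for HAMP, 2399 in control and 2599 in cadmium, are thus those of the USF2 start.

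SLC11A2 encodes DMT1, an importer of ferrous iron that is known to carry cadmium as well (chromosome 12, 50979401 to 51028566, minus strand). Its start peak was nearly the same in both lists, 2999 bp in control and 2799 bp in cadmium, and it ended at 51026799 in both. A second site 1617 bp upstream of the start, over an exon of a non-canonical transcript, measured 999 bp in control and 199 bp, a single bin, in cadmium. A lost peak of 799 bp, from 51000201 to 51000999, lay over exon 6 of 16 and the introns beside it. In all, 5763 bp were covered in control and 3964 bp in cadmium (ratio 0.698), and no base was in the cadmium list alone. That ratio was close to the 0.697 of the 2 whole lists, and 40.5% of all genes had a lower one. The difference in this window was one of narrower and missing peaks with the start kept.

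The copper pumps differed from each other. ATP7A (chromosome X, 77910690 to 78050395, plus strand), mutated in Menkes disease, had a start peak with the same edges in both lists, from 77910001 to 77911999. Its 2 distal peaks, in an intron from 78024401 to 78024999 and beyond the gene from 78064801 to 78065399, were also the same to the base. The difference in its window, 6794 bp in control against 4995 bp in cadmium, came mostly from narrower cadmium peaks at the neighbors. The peak at the start of MAGT1 measured 1799 bp in control and 999 bp in cadmium, and that at COX7B, a gene of the respiratory chain, 1599 and 799 bp. The only lost peak in the ATP7A window was a single bin of 199 bp in an intron (chrX:77937401-77937599), shown whole on the plus strand. The capitals mark an AP-1 site, TGACTCA, which overlaps an antioxidant response element core, and 2 forkhead strings (ATAAACA or ATAAATA, or the same with G as the first base, on either strand).
ATP7A lost peak: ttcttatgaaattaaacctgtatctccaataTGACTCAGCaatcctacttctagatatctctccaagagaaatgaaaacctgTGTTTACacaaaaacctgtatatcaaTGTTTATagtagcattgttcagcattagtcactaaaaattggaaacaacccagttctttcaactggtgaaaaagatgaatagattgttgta

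ATP7B (chromosome 13, 51930436 to 52012125, minus strand), mutated in Wilson disease, had the lowest ratio of the 10 genes. Peaks covered 6596 bp of its window in control and 2397 bp in cadmium (ratio 0.382), and 9.59% of all genes had a lower ratio. Most of the difference was a single lost peak of 3199 bp, from 51941401 to 51944599, over exons 14 and 15 of 21 and the introns beside them, 66851 bp from the start. Without it, 3397 bp were covered in control. The start peak, shared with the neighboring gene ALG11, was 2399 bp in control and 1799 bp in cadmium. Both ended at 52012799, past the ALG11 start, and the cadmium peak stopped 3 bins short on the ATP7B side, where it covered 449 bp downstream of the start against 1049 bp. An intronic shared site 10051 bp from the start was a single bin in both lists.

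SLC31A1 and ATOX1 were the most alike between the lists. SLC31A1, the copper importer CTR1 (chromosome 9, 113221544 to 113264492, plus strand), shares its start region with FKBP15 on the other strand. The peak there was 2999 bp in control (113220001 to 113222999) and 3399 bp in cadmium (113219801 to 113223199), 1 bin wider at each edge. With the shared peak at the starts of CDC26 and PRPF4, 5798 bp were covered in control and 5998 bp in cadmium, and 84.4% of the bases in either list were in both. ATOX1, the copper chaperone that delivers to both pumps (chromosome 5, 151742316 to 151772532, minus strand), had 4 peaks in each list and 88.5% of bases in both, the highest of the 10. Over all genes with a peak in the window, the median of this share was 54.7%, and over the 10 it was 73%. Its start peak measured 1999 bp in control and 1799 bp in cadmium. The 1799 bp peak at 151744601 to 151746399, over exon 3 of 4, had the same edges in both.

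**Figure D4:**
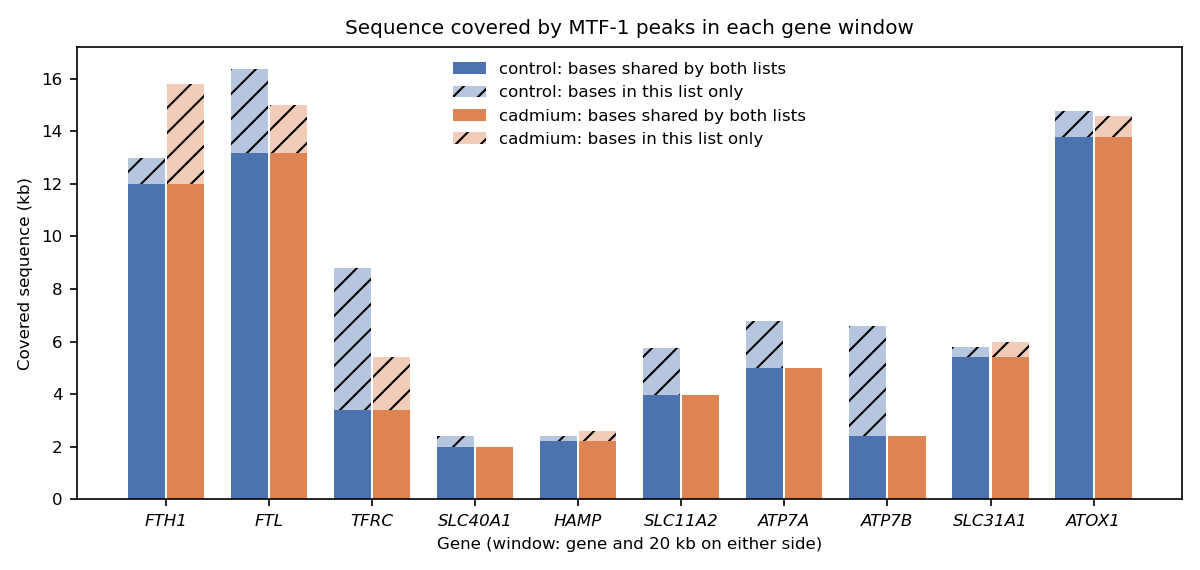
Bases covered by MTF-1 peaks in the window of each gene, in kb, for the control list (blue) and the cadmium list (orange), split into bases common to both lists (solid) and bases in that list only (hatched). ATP7B and TFRC have the largest hatched share in control and FTH1 the most bases in cadmium only, 3800 bp.

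RefSeq promoter sequences, from 250 bp before to 50 bp after the start, were at hand for 9 of the 10 genes, all but FTH1. A metal response element core was found in 4 of them, TFRC, SLC40A1, ATP7B and ATOX1, and in 34.9% of the 15345 protein-coding promoters searched. In TFRC the cores began at -240, -140 and -137 relative to the start, the last 2 overlapping on opposite strands. SLC40A1 had cores at -186 and -137, and ATOX1 had overlapping cores at -20 and -19. In ATP7B, whose RefSeq start lies 682 bp from the canonical one used here, the core was at 32 bp after the start. Those 4 promoters were inside a peak in both lists over all 300 bp, as were the other promoters except that of HAMP, which had no base in a peak. An AP-1 site was found in none of the 9 promoters and in 3.68% of all. The antioxidant response element core was found in ATOX1 only, and in 14.3% of all promoters. No match says only that these letters are not in this window.

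In the 9 unique peaks, the motifs were searched in 500 bp around the centre. An AP-1 site was present in 1 of 6 lost peaks, that of ATP7A, and in 24.5% of all lost peaks. It was in none of the 3 gained peaks and in 32.6% of all gained peaks. A forkhead string was present in 4 of 6 lost and none of 3 gained peaks, with 41.1% and 25.5% of all. The metal response element core was present in 3 of 6 lost peaks and 2 of 3 gained peaks, with 28.8% and 30.6% of all. Many of these matches are repeat sequence: all cores of the gained TFRC peak, 1 of 2 in the gained FTL peak and that of 1 lost TFRC peak lay in strings of 16 bases with 3890 copies or more in hg38. Copies were counted for the metal response element cores only, so whether the AP-1, antioxidant response element and forkhead matches are repeat sequence was not tested. How reads from repeat copies were placed was not tested either. For ATP7A the core lay beside the peak, which is narrower than the stretch searched, and the cores of the lost ATP7B peak and of the gained FTH1 peak lay outside that stretch. The antioxidant response element core was present in 1 of 6 lost and 1 of 3 gained peaks, with 18.4% and 23.5% of all. With so few peaks these counts are a description of single sites.

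The same measures were taken for 39 further genes of iron and copper handling, of which 30 belong to iron and 9 to copper. A TSS peak in both lists was found at 29 of 39, against 65.5% of all protein-coding genes, among them all 9 copper genes, such as CCS, the chaperone of superoxide dismutase, and COX17, which serves cytochrome c oxidase. STEAP4, a metalloreductase gene, had a TSS peak in control only. At least 1 lost peak was in 16 of the 39 windows (46% of all genes) and at least 1 gained peak in 17 (31.1% of all genes). Of 37 windows with any peak, 7 had at least 1.5-fold lower cover in cadmium, against 36.6% of all genes, among them STEAP4, CP, the gene of ceruloplasmin, and HFE, which is mutated in hereditary hemochromatosis. The median log2 ratio was -0.26 over the iron genes and -0.20 over the copper genes. Genes without a TSS peak in either list were TF, TFR2, HJV, TMPRSS6, CP, HEPH, FTMT and LTF.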

How the data were processed

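MTF-1 CUT&RUN was carried out in MDA-MB-231 cells, with 2 control and 2 cadmium libraries. After adaptor removal, the authors mapped reads with Bowtie2 on hg38, joined the replicates of a group with SAMtools 1.8 and called peaks on each merged set with Epic2 (the submitters' processing notes name SICER 0.0.50). The deposited lists hold peak positions in base pairs, and a last column with 1 constant value was not used. Merging hides the variation between libraries, so a narrow peak near the caller's threshold can appear unique.

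Peaks were compared in Python 3.11.15 with at least 1 shared base, against GENCODE 44 on the same build. Sequences were read with pysam 0.24.0. Ratios of covered bases used 200 bp added to each value. No test was run, since there is 1 list per group. The steps were checked on simulated data. All 10 genes are named, with each TSS peak and each gained or lost peak. The genes, the further list and the motifs were chosen with earlier results of these data known.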

Additional observations from a re-analysis of the deposited data

How the results depend on the processing

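No paired analysis was possible because the replicates of each group were merged into 1 list before deposition, and for the same reason no replicate could be left out. The number of genes with a TSS peak in both lists, 9, was the same with a distance of 3 kb, with any annotated start, with the TSS inside the peak, and with narrow peaks left out. Windows of 5 kb gave 18 conserved and 1 gained peak, windows of 50 kb 49 and 5, and peaks of at least 1000 bp 19 conserved. Requiring at least 50% of a peak to be covered by the other list gave 12 lost peaks. With the gene body only, 1 gene had at least 1.5-fold lower cover. With ratios divided by that of the total covered bases, 1 gene was lower and 2 were higher, and the median log2 ratio was 0.34. The log2 ratio then turned positive for ATOX1 (0.50), ATP7A (0.09), FTL (0.39) and SLC40A1 (0.28). With windows of 50 kb it turned negative for HAMP (-0.23) and SLC31A1 (-0.14). Searching whole TSS peaks for the metal response element core gave 7 genes, with FTH1 not searched and HAMP without a TSS peak. Whole TSS peaks are far wider than the 300 bp promoters, so a match is easier to find in them. The share of all genes with a core in a whole TSS peak was not computed. Of 56 recomputed summary values, 45 stayed close. Close meant a count within 1.5 times of the reported one, or a median ratio of the same direction that moved by at most 1.5-fold. Some settings could hardly move a value, so this tally overstates how far the results were tried. Joining peaks up to 600 bp apart changed no value. The 9 TSS peaks contained the start and were at least 1599 bp wide, so the settings for starts could not drop them. Without the division, the median log2 ratio lay between -0.27 and -0.04. Depth is unknown, so a missing peak cannot be told from a weak one.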

Other observations

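Among the further iron genes, chosen here by the size of their change after the values were seen, STEAP4 and CP had low ratios of covered bases. STEAP4, a metalloreductase gene, had 6196 bp covered in control and 999 bp in cadmium (log2 ratio -2.42), with 3 lost peaks and a start peak of 799 bp in control only. CP, the gene of ceruloplasmin, a copper-containing ferroxidase, had 7395 and 1998 bp (-1.79), 3 lost peaks and no start peak in either list. These values carry no test.

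HMOX1, the heme oxygenase gene, had 6994 bp covered in control and 9192 bp in cadmium (0.38), with 2 gained peaks and a start peak of 999 bp in control and 1999 bp in cadmium. BMP6, a ligand of the pathway that raises hepcidin, had a start peak of 1399 bp in control and 6199 bp in cadmium. The control list had further cover near that start, so these widths overstate the difference there. In the 5 kb upstream, 2598 bp were covered in control and 1497 bp in cadmium. In the 5 kb downstream, 1799 and 5000 bp were covered. The whole BMP6 window had less cover in cadmium (12992 and 9995 bp) and 3 lost peaks. SCO2, a copper chaperone of cytochrome c oxidase, had start peaks of 8799 and 8999 bp, close in width to those of the ferritin genes.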
